A study of Homo sapiens with 8 samples.

Results

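The genes described here encode the NF-kB transcription factor subunits NFKB1, NFKB2, REL, RELA and RELB. They also encode 5 proteins grouped here as feedback inhibitors of the pathway, NFKBIA, NFKBIB, NFKBIE, NFKBIZ and TNFAIP3. They were chosen by symbol, as the array's platform annotation names the probe sets, and all 10 were found among the 18404 genes with a value, each with 1 probe set. Their mRNA was measured on 8 single-channel whole-transcript arrays of HepG2, a human liver tumour cell line. The 4 arrays labelled Senescent came from cultures given 0.5 mM hydrogen peroxide (H2O2) in medium for 60 minutes. The 4 arrays labelled Normal, called untreated here, came from cultures that received medium without it. Both were then washed and kept for 5 days before the senescent phenotype was examined; when RNA was taken is not stated separately. All cultures are of the one tumour-derived line, so the replicates do not sample donors, and the design text calls the 4 per condition biological replicates. The comparison asks which transcripts differ between cells made senescent with H2O2 and untreated cells.

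NF-kB is a family of dimeric transcription factors that drive inflammatory, immune and survival genes, and it is known as a driver of the cytokines that senescent cells release. In resting cells the dimers are held in the cytoplasm by IkB proteins. The IkB kinase (IKK) complex marks the IkB proteins for breakdown, which frees the dimers to enter the nucleus, where they also switch on the genes for several of their own inhibitors. An mRNA array reads the transcripts of these proteins and not the breakdown of IkB or the entry of NF-kB into the nucleus.

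Because several of these genes are themselves controlled by NF-kB, their RefSeq promoter windows (GRCh38.p14, 250 bases before to 50 after a start site) were searched on both strands for the kappaB consensus, the 10-letter site that NF-kB binds. Windows were held for 8 of the 10 genes; RELB and NFKBIE had none here. Of these 8 genes 7 had at least 1 match, RELA being the exception, and 9 of their 14 windows held one. Among all 35116 windows 11.3% did, and among the 14230 tested genes with a window 16.1% had a match in at least 1. A match is a description of letters and not a shown binding site, and which start site HepG2 uses was not measured. The 4 windows below belong to the gene that fell (REL), to the inhibitors that rose (NFKBIA and NFKBIB) and to an inhibitor that did not pass the test (TNFAIP3). Capitals mark the matches, and each is written 5′ to 3′ on the gene's strand.
REL, chr2:60881324-60881623, + strand: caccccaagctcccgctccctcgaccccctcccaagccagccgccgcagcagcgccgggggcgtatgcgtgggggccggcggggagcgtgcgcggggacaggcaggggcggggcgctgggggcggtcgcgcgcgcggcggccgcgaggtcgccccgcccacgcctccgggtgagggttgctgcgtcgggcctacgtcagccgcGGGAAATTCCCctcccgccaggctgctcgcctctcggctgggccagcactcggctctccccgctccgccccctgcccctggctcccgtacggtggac
NFKBIA, chr14:35404700-35404999, - strand: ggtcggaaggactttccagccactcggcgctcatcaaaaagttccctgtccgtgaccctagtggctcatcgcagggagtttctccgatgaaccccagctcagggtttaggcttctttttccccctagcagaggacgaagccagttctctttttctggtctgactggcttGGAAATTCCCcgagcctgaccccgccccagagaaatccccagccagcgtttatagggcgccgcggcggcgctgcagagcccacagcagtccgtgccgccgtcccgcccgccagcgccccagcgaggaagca
NFKBIB start 2, chr19:38899719-38900018, + strand: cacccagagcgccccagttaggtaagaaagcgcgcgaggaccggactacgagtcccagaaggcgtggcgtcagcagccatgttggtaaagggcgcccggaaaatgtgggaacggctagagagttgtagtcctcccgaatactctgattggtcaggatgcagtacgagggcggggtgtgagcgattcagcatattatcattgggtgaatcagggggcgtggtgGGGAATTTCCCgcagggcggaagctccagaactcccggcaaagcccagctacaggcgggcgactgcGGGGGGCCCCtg
TNFAIP3, chr6:137867009-137867308, + strand: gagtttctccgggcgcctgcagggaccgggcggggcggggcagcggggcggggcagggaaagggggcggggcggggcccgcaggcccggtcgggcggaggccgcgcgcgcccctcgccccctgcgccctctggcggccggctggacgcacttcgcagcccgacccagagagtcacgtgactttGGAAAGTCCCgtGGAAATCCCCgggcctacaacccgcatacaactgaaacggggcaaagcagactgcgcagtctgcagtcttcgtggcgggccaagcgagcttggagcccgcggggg

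In REL the match GGGAAATTCCC lay 37 to 47 bases before the start site and reads as a match on both strands. NFKBIA had GGAAATTCCC, a match on the opposite strand, 72 to 81 bases before its start. NFKBIB had GGGAATTTCCC 18 to 28 bases before the second of its starts and GGGGGGCCCC after it, and its first start had no match. TNFAIP3 had GGAAAGTCCC and GGAAATCCCC side by side, both matches on the opposite strand, 58 to 67 and 46 to 55 bases before its start. Of the windows not printed, that of the first NFKB1 start held GGGAATTTCC 40 to 49 bases before it, and the same letters stood 214 to 223 bases before the first NFKBIZ start. The second NFKBIZ start had GGGGTTTCCC. NFKB2 had matches at start 2 (GGGAATTCCCC and GGGGCTTTCC) and at start 3 (GGGGCTTCCC and GGGACTTTCC). Genes that were called higher, called lower and not called all occurred among those with a match.

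**Figure D1:**
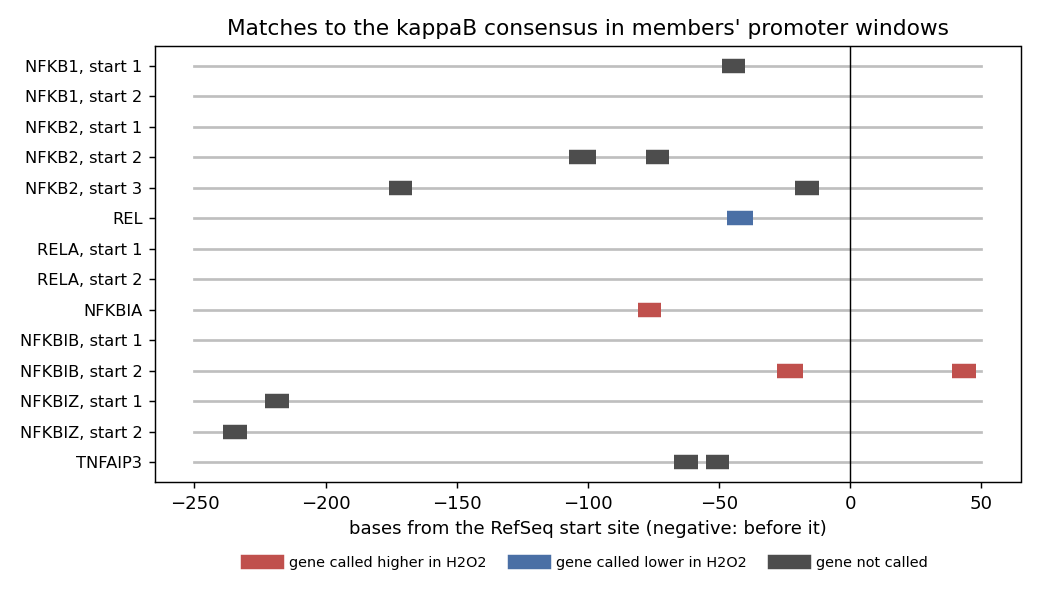
Matches to the kappaB consensus in the 14 promoter windows of 8 genes, by distance in bases from the RefSeq start site; each grey line is a window, each block a match, coloured by how the gene was called. Matches near a start site occur in REL, NFKBIA and TNFAIP3, with different calls, and the 2 RELA windows have none. Starts of a gene are numbered by genome position.

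REL fell and RELB, NFKBIA and NFKBIB rose in H2O2-treated cells, and the other 6 genes did not pass the test. The test was limma's moderated test of H2O2 minus untreated log2 values over all 18404 genes, with a call at a Benjamini-Hochberg adjusted p under 0.05; every adjusted p below comes from it, and differences are on the log2 scale with their standard error (SE). With 3 of 10 higher and 1 lower, 40.0% were called, against a background of 34.0% of all genes called, 19.2% higher and 14.8% lower. That share is near this background, and the family as a whole is not set apart by it. This background also takes in dim genes, which the 10 genes are not. The groups did not overlap in 5 of the 10 genes, 4 with all treated arrays above and 1 below, against 33.7% of all genes, 18.9% above and 14.8% below. The median log2 difference of the 10 genes was 0.04, against -0.02 for all genes. All 4 called changes were under 1.5-fold. In all 10 genes the mean level over the 8 arrays lay above 6.89, the median of all probe sets. A test of only the 11250 genes at or above that level called 3141 of them higher and 2575 lower. In that test 4 of the 10 genes were higher and 2 lower.

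Among the 5 DNA-binding subunits, REL changed most. REL encodes c-Rel, a subunit with a transactivation domain that is best known from lymphocytes. It read 7.82, 7.73, 7.54 and 7.70 in H2O2 replicates 1 to 4, against 8.17, 8.19, 8.40 and 8.21 in untreated replicates 1 to 4. Every treated array lay below every untreated one, by at least the distance between 7.82 and 8.17. The log2 difference was -0.54 ± 0.079 (95% interval -0.71 to -0.37, limma adjusted p = 0.000101), so that REL was 1.46-fold lower. This change was larger than that of 89.6% of all genes. It stayed called in all 16 alternatives, with log2 differences of -0.58 to -0.44.

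RELB, the subunit that pairs with p52 in the non-canonical pathway, went the other way. It read 7.68, 7.61, 7.84 and 7.85 in H2O2 replicates 1 to 4, against 7.58, 7.47, 7.35 and 7.56 in untreated replicates 1 to 4. The groups do not overlap, but the lowest treated array (7.61) and the highest untreated array (7.58) nearly touch. The log2 difference was 0.26 ± 0.079 (95% interval 0.09 to 0.43, limma adjusted p = 0.0219), or 1.19-fold. Leaving out any single array gave differences of 0.21 to 0.30, but with fewer arrays the call did not always hold. It was lost without untreated replicate 2 (0.25, adjusted p = 0.0501), untreated replicate 3 (0.21, adjusted p = 0.0574) or H2O2 replicate 4 (0.22, adjusted p = 0.0767). Without replicate 3 of both groups the difference was 0.18 (adjusted p = 0.0818).

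RELA, which encodes p65, the main activating subunit of the canonical pathway, had a small difference that did not pass. It read 9.59, 9.53, 9.69 and 9.62 in H2O2 replicates 1 to 4 and 9.41, 9.42, 9.53 and 9.46 in untreated replicates 1 to 4. All treated arrays lay above all untreated arrays, though the lowest treated and the highest untreated array both round to 9.53. The log2 difference was 0.15 ± 0.065 (95% interval 0.01 to 0.29, adjusted p = 0.0874). It passed when dim genes were left out of the test (adjusted p = 0.0477) and with array weights (adjusted p = 0.0330).

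NFKB1 and NFKB2 encode p105 and p100, long precursors that act as inhibitors and are cut to the DNA-binding subunits p50 and p52. NFKB1 read 8.63, 8.77, 8.44 and 8.68 in H2O2 replicates 1 to 4 and 8.83, 8.86, 9.03 and 8.67 in untreated replicates 1 to 4. Its groups overlap through untreated replicate 4, the lowest of its group. The log2 difference was -0.22 ± 0.090 (95% interval -0.42 to -0.03, adjusted p = 0.0781). Without untreated replicate 4 it was -0.28 and passed (adjusted p = 0.0360), and without H2O2 replicate 2 it was -0.27 (adjusted p = 0.0450). It also passed after quantile normalization (-0.24, adjusted p = 0.0367) and, just inside the threshold, when dim genes were left out of the test, while without replicate 3 of both groups it was -0.10 (adjusted p = 0.311). NFKB2 read 7.96, 7.92, 8.12 and 8.09 in H2O2 replicates 1 to 4 and 7.85, 7.94, 7.90 and 7.90 in untreated replicates 1 to 4. The untreated arrays lay close together, and 1 of them (7.94) exceeded the lowest treated array. Its log2 difference of 0.12 ± 0.069 (95% interval -0.03 to 0.27) did not pass (adjusted p = 0.201), nor in any of the 16 alternatives.

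Of the 3 inhibitor genes for IkB proteins that hold dimers in the cytoplasm, NFKBIA and NFKBIB rose and NFKBIE did not pass the test. NFKBIA encodes IkB-alpha, whose gene is switched on by NF-kB and closes the fastest feedback loop. It read 10.66, 10.72, 10.80 and 10.85 in H2O2 replicates 1 to 4, against 10.50, 10.49, 10.56 and 10.48 in untreated replicates 1 to 4. The treated arrays all lay above the untreated arrays, which spread little. The log2 difference was 0.25 ± 0.066 (95% interval 0.11 to 0.39, limma adjusted p = 0.00851), or 1.19-fold. NFKBIB encodes IkB-beta, an inhibitor of the same dimers that is resynthesised more slowly. It read 8.52, 8.46, 8.32 and 8.23 in H2O2 replicates 1 to 4, against 8.05, 8.04, 7.95 and 7.99 in untreated replicates 1 to 4. Here too every treated array was higher, with the wider spread among the treated. The log2 difference was 0.37 ± 0.075 (95% interval 0.21 to 0.53, limma adjusted p = 0.00138), or 1.30-fold. Both calls held in all 16 alternatives, at 0.22 to 0.28 for NFKBIA and 0.33 to 0.42 for NFKBIB.

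The other 3 genes grouped here as inhibitors did not pass, and their 95% intervals are per gene and unadjusted. NFKBIE, which encodes IkB-epsilon, the other cytoplasmic IkB protein of the set, read 7.81, 7.71, 7.91 and 7.71 in H2O2 replicates 1 to 4 and 7.94, 7.84, 7.79 and 7.72 in untreated replicates 1 to 4. Its groups overlap over nearly their whole range, with a log2 difference of -0.04 ± 0.074 (95% interval -0.20 to 0.12, adjusted p = 0.738). NFKBIZ encodes IkB-zeta, a nuclear protein that steers NF-kB on a subset of inflammatory genes. It read 7.40, 7.38, 7.31 and 7.44 in H2O2 replicates 1 to 4 and 7.42, 7.48, 7.61 and 7.57 in untreated replicates 1 to 4. Untreated replicate 1 lay below H2O2 replicate 4, and the difference was -0.14 ± 0.068 (95% interval -0.29 to 0.01, adjusted p = 0.133). TNFAIP3 encodes A20, a ubiquitin-editing enzyme that shuts the pathway off above IKK. It read 9.09, 9.15, 9.05 and 9.21 in H2O2 replicates 1 to 4 and 9.21, 8.91, 9.42 and 9.33 in untreated replicates 1 to 4. Untreated replicate 2 was the lowest of all 8 arrays, and the untreated SD of 0.22 was the widest of the 10 genes. The difference was -0.09 ± 0.098 (95% interval -0.30 to 0.12, adjusted p = 0.533), and none of these 3 genes passed in any of the 16 alternatives.

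**Figure D2:**
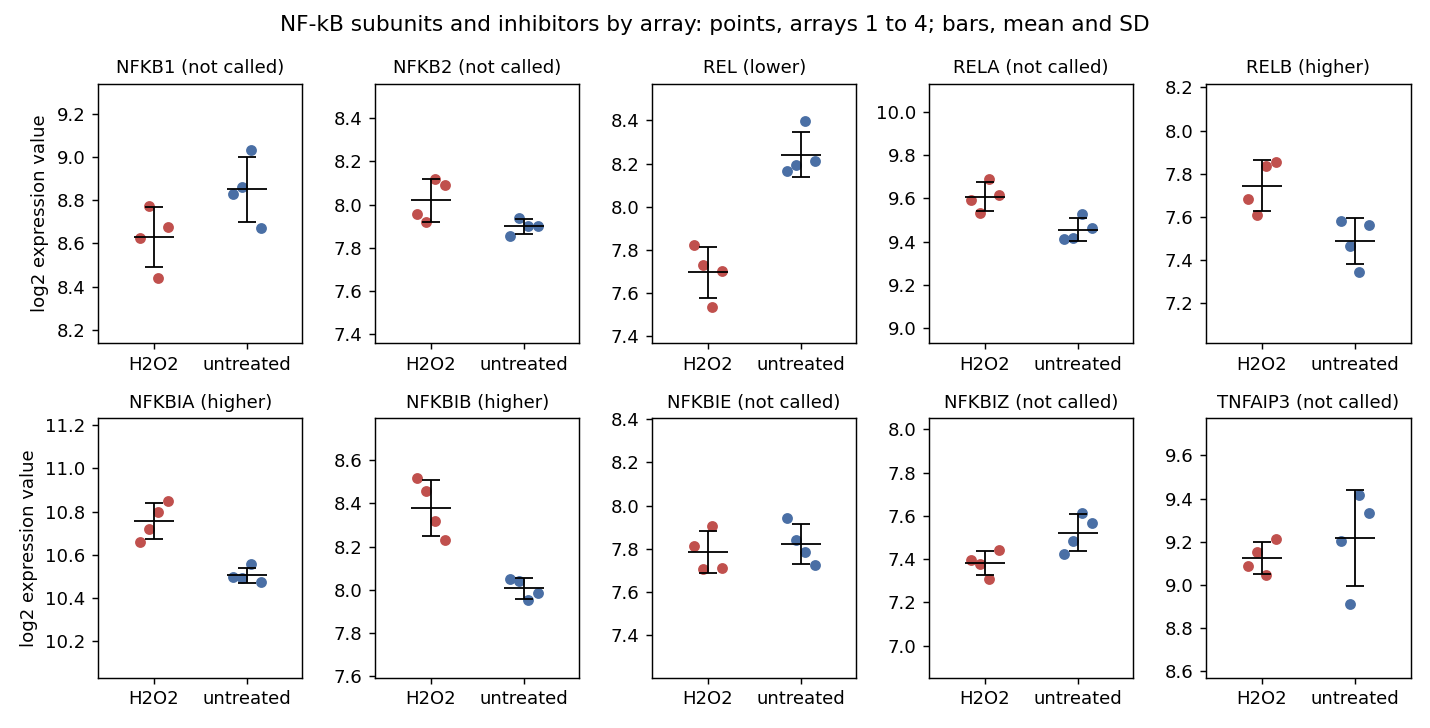
Log2 expression value of each of the 10 genes on each array, H2O2 left and untreated right; points are replicates 1 to 4 from left to right, bars the mean and SD, and all panels span the same log2 range around their own centre. REL separates the groups most, with 7.54 to 7.82 in H2O2 arrays and 8.17 to 8.40 in untreated arrays, while the groups of NFKBIE and TNFAIP3 overlap.

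**Figure D3:**
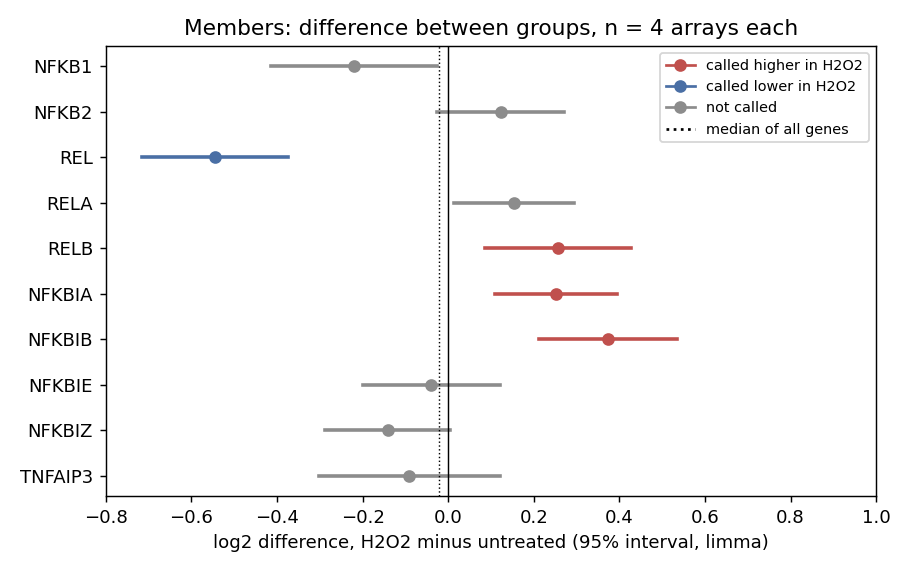
Log2 difference, H2O2 minus untreated, of the 10 genes with its 95% interval from limma (n = 4 arrays per group), coloured by call; the dotted line is the median of all genes (-0.02). The intervals of REL (-0.71 to -0.37) and NFKBIB (0.21 to 0.53) lie farthest from 0. Intervals are per gene and unadjusted, so those of NFKB1 and RELA exclude 0 though neither gene was called.

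Within a group the arrays did not contribute evenly. H2O2 replicate 3 was the highest or lowest of its group in 7 of the 10 genes and untreated replicate 3 in 8 of 10, and untreated replicate 1 in 7 of 10, the other 5 arrays in 2 to 5. Over all 18404 genes, H2O2 replicate 3 was at an end of its group in 70.0% and untreated replicate 3 in 64.9%, against 37.2% to 51.5% for the other 6 arrays. Without both replicates 3, an alternative added after the values were seen, REL was still lower (-0.44, limma adjusted p = 0.000314) and NFKBIA (0.26, adjusted p = 0.0120) and NFKBIB (0.38, adjusted p = 0.00437) higher, and RELB, as given above, did not pass.

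The genes whose log2 values over the 8 arrays were most like those of REL, by Pearson's r, were ELF2 (r = 0.997), an ETS family transcription factor, CEP128 (r = 0.993), a centriole protein, and IMPA2 (r = 0.991), an inositol monophosphatase. For NFKBIB, the largest rise among the 10 genes, they were ACAD8 (r = 0.993), an enzyme of valine breakdown, SHBG (r = 0.988), the sex hormone carrier of plasma, and ETNPPL (r = 0.987), an enzyme that breaks down phosphoethanolamine. All 6 differed between the groups in the same direction as the gene they follow, and the arrays fall into 2 groups, so these coefficients mostly describe the group difference and carry no p.

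The kinases that release NF-kB were called in both directions. Of 13 measured genes of the IKK complex and its upstream kinases 3 rose and 2 fell, a share of 38.5% against the background of 34.0%, with a median log2 difference of 0.01. Both catalytic subunits rose: CHUK (IKK-alpha) averaged 8.71 ± 0.115 in H2O2 cells and 8.21 ± 0.12 in untreated cells (SD, n = 4 each; log2 difference 0.50 ± 0.081, limma adjusted p = 0.000228). IKBKB (IKK-beta) averaged 8.25 ± 0.046 in H2O2 cells and 7.85 ± 0.039 in untreated cells (0.39 ± 0.062, limma adjusted p = 0.000206). The regulatory subunit IKBKG (NEMO) gave -0.23 ± 0.074 (adjusted p = 0.0281). That value is uncertain because the gene has a near-identical pseudogene copy. The call was also lost without untreated replicate 1, untreated replicate 3, H2O2 replicate 1 or H2O2 replicate 4, at -0.24 to -0.18. IKBKE, a related kinase of the interferon pathway, rose by 0.28 ± 0.074, and MAP3K8, a kinase bound by p105, fell by 0.27 ± 0.072. MAP3K14 (NIK), which starts the non-canonical pathway, differed by 0.01 ± 0.063 (95% interval -0.12 to 0.15, adjusted p = 0.910). Its mean levels, 6.87 in H2O2 cells and 6.85 in untreated cells, lay just below 6.89, the median of all probe sets. In the short DNA damage route to IKK, 1 of 6 measured genes rose, PIDD1, a p53-induced scaffold (0.47 ± 0.073), and 1 fell, which was IKBKG, a share of 33.3% that is near the background.

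Above the kinases, a few ligands and receptors had large changes. Among 11 measured ligands 1 rose and 1 fell, 18.2% against the background of 34.0% called, but 8 of the 11 averaged below 6.89. The cytokine IL18 averaged 7.04 ± 0.29 in H2O2 cells and 3.67 ± 0.072 in untreated cells, 10.4-fold higher (limma adjusted p = 1.45e-10). In untreated cells IL18 read less than 6.89, the median of all probe sets, as did TLR4, SETD7, MMP3, PLAU, TLR6, KAT2B, BCL2A1, TLR2, RPS6KA5, TNFSF11, CEP128 and ETNPPL, and the last 5 of these, with TLR6, KAT2B and BCL2A1, read less than it in treated cells too. No detection call was used, so such levels may lie near background and the size of these differences is uncertain, even where the SE is small. TNF (-0.02 ± 0.11, adjusted p = 0.931), IL1A (-0.02 ± 0.091, adjusted p = 0.917) and IL1B (-0.09 ± 0.079, adjusted p = 0.408) did not pass, at mean levels of 6.08 or less in both groups. The call of TNFSF11 (RANKL), at -0.22 ± 0.078, was lost in 9 of its 15 alternatives (it is too dim for the filter on dim genes), without untreated replicates 1 (-0.14), 3 or 4 or H2O2 replicates 1, 2 or 4 among them. Of 21 measured receptors 4 rose and 2 fell, 28.6% against the same background. TLR4, the receptor for bacterial lipopolysaccharide, averaged 7.98 ± 0.15 in H2O2 cells and 5.14 ± 0.10 in untreated cells, 7.20-fold higher (limma adjusted p = 4.14e-11). TNFRSF12A, the receptor for TWEAK, rose by 1.18 ± 0.072 and TLR6 by 0.69 ± 0.070. IL1RAP, the accessory chain that interleukin-1 receptors need, fell by 1.14 ± 0.11 (7.51 ± 0.25 in H2O2 cells and 8.65 ± 0.095 in untreated cells), and TLR2 by 0.39 ± 0.089.

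Adaptors and ubiquitin ligases, which carry the signal from receptors to IKK, rose in 9 of 21 measured cases and fell in 1, 47.6% against the background of 34.0% (19.2% higher and 14.8% lower), with a median log2 difference of 0.11. BCL10 rose by 0.65 ± 0.084, whereas its partner MALT1, a paracaspase that also cleaves A20, fell by 0.55 ± 0.076. TRADD, the adaptor of the TNF receptor, rose by 0.49 ± 0.064 and RIPK2, a kinase behind NOD receptors, by 0.43 ± 0.079. Among 18 other IkB proteins and feedback enzymes 7 rose and 4 fell (61.1% against the background of 34.0%, median log2 difference 0.13). Only 2 of these 18 genes averaged below 6.89, the median of all probe sets. The background of 34.0% takes in dim genes, so it is not a like share for this list. TAX1BP1, a ubiquitin-binding partner of A20, rose by 0.59 ± 0.075 and RNF11, another partner of A20, by 0.47 ± 0.067. CYLD, the deubiquitinase that restrains the pathway in parallel to A20, rose by 0.56 ± 0.099 (7.57 ± 0.17 in H2O2 cells and 7.01 ± 0.17 in untreated cells, limma adjusted p = 0.000536). PDLIM2, a ligase that marks nuclear RELA for breakdown, fell by 0.26 ± 0.072, USP21, a deubiquitinase, by 0.25 ± 0.063, and NFKBID, a nuclear IkB protein, by 0.23 ± 0.069. The NFKBID call was lost without untreated replicate 4 (-0.18, adjusted p = 0.0567) or H2O2 replicate 1 (-0.22, adjusted p = 0.0536). BCL3, a nuclear IkB protein that binds p50 and p52, differed by 0.05 ± 0.064 (95% interval -0.09 to 0.19, adjusted p = 0.610).

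Cofactors and modifiers of RELA rose in 6 of 15 measured cases and fell in 2, 53.3% against the background of 34.0%. SETD7, a lysine methyltransferase with RELA among its substrates, averaged 7.68 ± 0.066 in H2O2 cells and 5.28 ± 0.25 in untreated cells, 5.27-fold higher (limma adjusted p = 1.24e-09). PPM1D (WIP1), a p53-induced phosphatase, rose by 0.58 ± 0.065 and the acetyltransferase KAT2B by 0.52 ± 0.076. RPS6KA5 (MSK1), a kinase that phosphorylates RELA, fell by 0.86 ± 0.078. The deacetylase SIRT1 gave -0.25 ± 0.076 (adjusted p = 0.0203), a call lost without untreated replicate 1, untreated replicate 3, H2O2 replicate 4 or both replicates 3, at -0.24 to -0.20.

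Genes known as NF-kB targets were called in both directions. Of 29 measured secreted targets 7 rose and 2 fell, a share of 31.0% against the background of 34.0%, with a median log2 difference of -0.02. MMP3, the matrix protease stromelysin-1 (3.49 ± 0.086), the chemokine CXCL8 (1.69 ± 0.12) and PLAU, the urokinase plasminogen activator (1.47 ± 0.073), rose most. The chemokine CCL20 averaged 9.26 ± 0.13 in H2O2 cells and 11.13 ± 0.19 in untreated cells, 3.64-fold lower (limma adjusted p = 6.05e-09). IL6, a cytokine often tied to NF-kB in senescent cells, read 5.12 ± 0.18 in H2O2 cells and 5.15 ± 0.12 in untreated cells (95% interval of the log2 difference -0.22 to 0.18, adjusted p = 0.886). The complement protease CFB gave -0.35 ± 0.11, with overlapping groups. Its call was lost without untreated replicate 1 (-0.33), 3 (-0.28) or 4 (-0.36), without H2O2 replicate 3 (-0.28) or 4 (-0.28), and without both replicates 3 (-0.21).

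Of 26 measured intracellular and membrane targets 11 rose and 4 fell (57.7% against the background of 34.0%, median log2 difference 0.09). FAS, a death receptor that p53 also controls, rose by 1.94 ± 0.099, the cyclin CCND1 by 0.91 ± 0.082 and BCL2A1, a survival protein of the BCL2 family, by 0.82 ± 0.10. The adhesion molecule ICAM1 rose by 0.27 ± 0.067 (10.39 ± 0.053 in H2O2 cells and 10.12 ± 0.083 in untreated cells, limma adjusted p = 0.00559), and the transcription factor IRF1 by 0.39 ± 0.069. SOD2, the mitochondrial superoxide dismutase, averaged 8.98 ± 0.084 in H2O2 cells and 9.75 ± 0.20 in untreated cells, 1.70-fold lower (limma adjusted p = 2.21e-05). MYC fell by 0.53 ± 0.065 and ELF3, an epithelial ETS factor, by 0.44 ± 0.095. Over all 152 measured genes of these pathway lists, each counted once, 48 rose and 18 fell, 43.4% against the background of 34.0%, with a median log2 difference of 0.04. Brighter genes were called more often, and the lists differ in brightness. The shares of the lists are therefore not directly comparable with the background of 34.0%, which takes in dim genes. Genes averaging below 6.89 made up 16 of the 29 secreted targets, but 3 of the 21 adaptors and 3 of the 15 RELA cofactors. In the test of the 11250 genes at or above 6.89, 42 of 102 pathway genes were higher and 15 lower. Of all 11250 genes, 3141 were higher and 2575 lower.

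**Figure D4:**
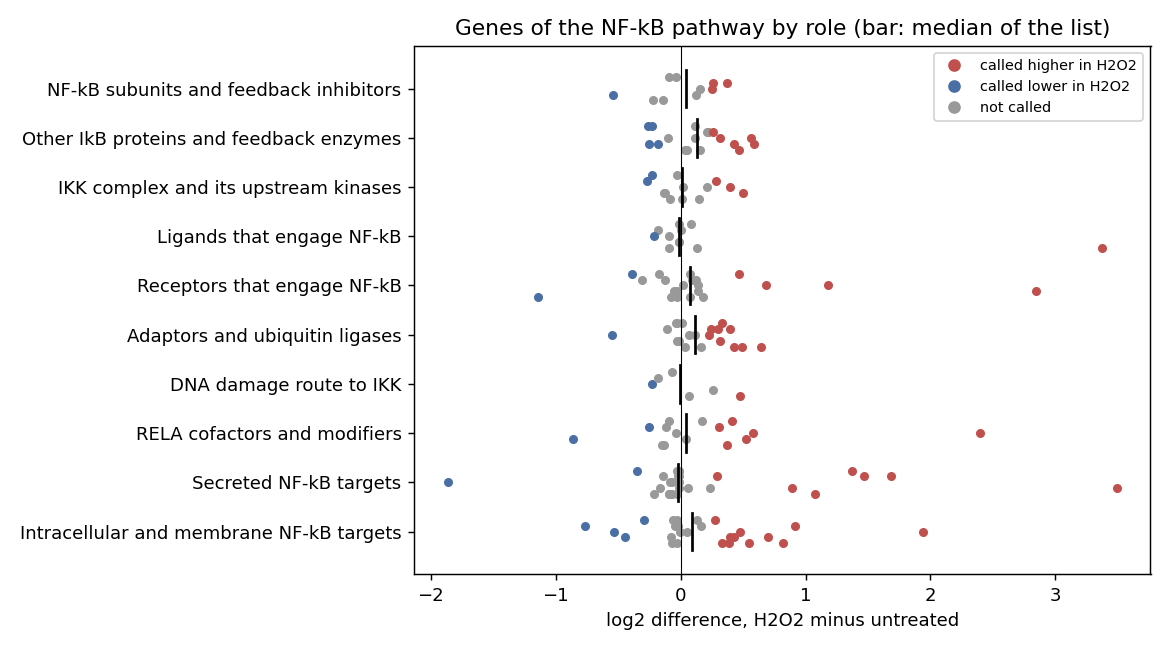
Log2 difference, H2O2 minus untreated, of each measured gene of the NF-kB pathway, grouped by role; each point is a gene, coloured by call, and the bar is the median of its list. The medians lie between -0.02 and 0.13, while single genes such as IL18 (3.37), TLR4 (2.85) and CCL20 (-1.87) lie far out.

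The promoter search extends to these lists. Of 19 secreted targets with a window 14 had a kappaB match and of 21 intracellular and membrane targets 11 had one, as against 16.1% of all tested genes. Both lists were chosen as known NF-kB targets, so high shares follow from that choice and are no result of these arrays. Matches were found in 7 of 16 other IkB proteins and feedback enzymes, 4 of 10 ligands, 3 of 12 genes of the IKK list, 3 of 6 of the DNA damage route, 3 of 15 RELA cofactors, 2 of 16 receptors and 2 of 16 adaptors. Over all tested genes with a window, 22.3% of the 2294 genes with a match were called higher and 14.5% lower. Of the 11936 genes without one, 19.8% were called higher and 15.2% lower. The median log2 difference was -0.02 in both sets, and genes with more start sites have more windows in which to match.

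The arrays' median log2 values lay between 6.85 and 6.93, and Pearson's r between arrays, taken across probe sets (no replicates of each other), was at least 0.990 within a group and at most 0.985 between groups. The liver identity of the cells was visible in hepatocyte markers, of which 8 of 10 were measured. Their mean level over the list was 11.61 to 11.89 in H2O2 arrays and 12.04 to 12.09 in untreated arrays. Of these 8, 5 were called lower and 1 higher, 75% against the background of 34.0% (14.8% lower and 19.2% higher). Their median log2 difference was -0.39, against -0.02 for all genes. Leukocyte markers, looked at because REL is best known from lymphocytes, were measured for 11 of 12 genes. The 4 that rose were CD3D, CD14, FCER1G and CD79A, and 0 fell. All calls were rises, so 36.4% were higher, against 19.2% of all genes higher and 14.8% lower. In either direction 34.0% of all genes were called. The mean level of the 11 leukocyte markers was 7.04 to 7.11 in H2O2 arrays and 6.76 to 6.85 in untreated arrays. Of the 11 markers 5 lay below the array median. They ranged widely: PTPRC, common to all leukocytes, read 4.09 in H2O2 cells and 4.23 in untreated cells, and LYZ, the lysozyme of myeloid cells, 12.83 in H2O2 cells and 12.90 in untreated cells. Of 6 endothelial markers 0 rose and 1 fell, 16.7% against the background of 34.0%. Of 8 fibroblast and stellate cell markers 1 rose and 1 fell, 25% against the same background. No value on an array is 0, and the part of these markers in the results above was not tested. In such bulk samples, fewer cells that express a gene and less of its RNA per cell cannot be told apart.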

How the data were processed

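The authors deposited log2 values, 1 for each probe set on each of the 8 arrays; the log scale was read from their range of 1.80 to 13.86. Per the labels' protocols, total RNA was turned through cRNA into biotin-labelled sense cDNA; the submitters' processing notes name limma without a role, and the summary, background correction, normalization and genome build are not given in the sources used here. Of 32321 probe sets, 19158 carry 1 gene symbol in the platform annotation, 1388 several and 11775 none. Entrez identifiers of 19128 were found in RefSeq (GRCh38.p14) and changed 0 symbols. Where a gene had more than 1 probe set (637 genes), the brightest on average stood for it.

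Groups are those of the sample titles. H2O2 was compared with untreated by limma 3.58.1 in R 4.3.3, with 1 mean per group, empirical Bayes moderation and Benjamini-Hochberg adjustment over 18404 genes. The fit was tested on simulated data. The alternatives were the replicate number as a block, quantile normalization, median centring, a filter on dim genes, averaged probe sets, an intensity trend with robust moderation, array weights, leaving out each array and, added after the data were seen, leaving out both replicates 3. The genes and lists were chosen with earlier results of these data known. Besides the 10 genes, the text names 17 genes whatever their value, of which BIRC3 and RIPK1 had no value here, up to 3 called rises and 3 called falls per list, and the 3 genes most like the largest rise and fall. The kappaB consensus was read as 3 G, a purine, any 2 letters, 2 pyrimidines and 2 C, with overlapping matches joined. The number of arrays limits the precision. Python 3.11.15 with pandas 2.3.3 and matplotlib 3.10.9 served for the promoters and figures.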

Additional observations from a re-analysis of the deposited data

Results flagged for a closer look

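Across the genes named above, 126 groups of 4 arrays were examined for a single array far from the other 3, and 4 stood out by Dixon's criterion, fewer than the 1 in 20 that chance gives; none was one of the 10 NF-kB subunit and inhibitor genes. CCL20 read 9.46 in H2O2 replicate 2, with the other 3 treated arrays at 9.19 to 9.20. CYLD read 7.27 in untreated replicate 3, against 6.91 to 6.95 in the other untreated arrays. RIPK2 read 8.71 in the same array, against 8.52 to 8.55. TNFSF11 read 5.76 in H2O2 replicate 3, against 5.65 to 5.67.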

How the results depend on the processing

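REL, NFKBIA and NFKBIB kept their calls in all 16 alternatives. RELB lost its call in 4, each leaving out arrays, and NFKB1 gained one in 4 and RELA in 2, as given with each gene. Members called lower numbered 1, and 2 after quantile normalization and 2 without dim genes, NFKB1 being the other; leaving out single replicates gave 1 to 2 lower and 2 to 3 higher. Genes called lower over the whole array numbered 2732, and 4111 with array weights. Without both replicates 3 they numbered 3882, and 3970 were higher. The 53 other named genes lost a call in 26 of 832 values and gained 0, and 0 called values changed sign; 2 values of the 10 genes and 15 of the others changed sign without a call. TNFSF11 also lost its call after quantile normalization (-0.19) and with an intensity trend. Same-numbered arrays did not deviate together (r = -0.25 to 0.09). The sample titles do not say whether they were paired, and these coefficients cannot decide it, because paired arrays can still deviate apart. With the replicate number as a block the counts were 3288 higher and 2470 lower over all genes, 3 and 1 among the 10 genes and 46 and 15 in the pathway lists, and TNFSF11 and CFB lost their calls. No detection call was used here, so low levels may lie near background.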
